A study of Mus musculus with 4 samples.

Results

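The cytosolic heat shock response genes described here were the 10 listed genes *Hsf1*, *Hspa1a*, *Hspa1b*, *Hspa8*, *Hsph1*, *Dnajb1*, *Hsp90aa1*, *Hsp90ab1*, *Hspb1* and *Bag3*, found by symbol among the 32286 features that were counted. They were taken by name, and all 10 were present. They are read beside 14 chaperones of the endoplasmic reticulum (ER). The study deleted *Sel1L*, a subunit of the SEL1L-HRD1 complex of ER-associated degradation, in neurons, and single-nucleus RNA was measured in cortex and hippocampus of 5-week-old mice. Of the 4 libraries, 2 were labelled Sel1L flox/flox and 2 were labelled Sel1L Syn-Cre, with 1 mouse each, on a C57BL/6J background with littermates as controls. All mice carried the floxed *Sel1L* alleles, and the Syn-Cre mice in addition a Cre recombinase driven by the Synapsin I promoter, which is active in postmitotic neurons. According to the study's stains, it does not remove SEL1L from every neuron. The protein was lost in a part of the cortical neurons and in nearly all neurons of CA3 and the dentate gyrus, and was largely kept in CA1.

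The heat shock response answers misfolded protein in the cytosol and nucleus. Its transcription factor HSF1 is held inactive by chaperones, is released when unfolded proteins occupy them, and binds heat shock elements, inverted repeats of the letters nGAAn, upstream of its targets. HSP70 proteins (HSPA1A and HSPA1B, which are inducible, and HSPA8, which is always present) bind exposed hydrophobic stretches. J proteins such as DNAJB1 bring them substrates, HSPH1 and BAG3 exchange their nucleotide, HSP90 proteins (HSP90AA1, HSP90AB1) hold late folding intermediates, and the small heat shock protein HSPB1 keeps unfolded proteins from aggregating. The ER has related proteins of its own (HSPA5, HSP90B1, HYOU1, DNAJB9), which are controlled by the unfolded protein response and not by HSF1. Neurons are known for a weak inducible heat shock response.

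Matches to the element that each set is known for are printed here from RefSeq promoters (GRCm38.p6, 250 bases before to 50 after the start, 32851 promoters). Promoters of 6 of the 10 genes were in the table. *Hsf1*, *Hspa8*, *Hsp90aa1* and *Hsp90ab1* were not. The letters searched on both strands were GAANNTTC and TTCNNGAA, which are 2 units of a heat shock element head to head or tail to tail, and 15.1% of all promoters held at least 1 of them. Runs of 3 units (TTCNNGAANNTTC or GAANNTTCNNGAA, which contain the shorter motifs) were found in 0.603% of promoters. In the following lines the matched letters are in capitals, each sequence is given 5′ to 3′ on the strand of the gene, and positions count from the start site.
*Hspa1a*, chr17:34972243-34972270, minus strand, from -104: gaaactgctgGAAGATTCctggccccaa
*Hspa1b*, chr17:34959325-34959352, minus strand, from -104: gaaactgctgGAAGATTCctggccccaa
*Hsph1*, chr5:149636352-149636379, minus strand, from -33: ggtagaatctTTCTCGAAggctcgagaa
*Hsph1*, chr5:149636287-149636310, minus strand, from 36: atgctgcagaTTCTGGAAAGTTCt
*Hspb1*, chr5:135887792-135887819, plus strand, from -117: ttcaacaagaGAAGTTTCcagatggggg
*Hspb1*, chr5:135887812-135887839, plus strand, from -97: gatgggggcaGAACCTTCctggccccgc
*Bag3*, chr7:128523615-128523632, plus strand, from 42: gatgggaccaGAAGTTTC
The run of 3 units stood in *Hsph1* and in no other of the 6 genes, and no match of either kind was found in the windows of *Dnajb1*. The sites of *Hspa1a* and *Hspa1b* are the same because the genes are near copies: their promoters agreed at 296 of 300 bases.

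For the ER set, the letters of the ER stress element, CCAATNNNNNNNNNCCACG (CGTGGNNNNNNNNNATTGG on the other strand), were found in 0.119% of all promoters and in 6 of the 12 ER chaperone genes with a promoter in the table (*Hspa5*, *Hsp90b1*, *Dnajc3*, *Canx*, *Calr* and *Pdia6*). Of the 12, *Dnajc10* also held 1 TTCNNGAA. Matches of the ER relatives of *Hspa8* and of the cytosolic HSP90 genes are shown as examples.
*Hspa5*, chr2:34772021-34772047, plus strand, from -65: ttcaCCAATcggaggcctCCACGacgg
*Hsp90b1*, chr10:86705634-86705660, minus strand, from -212: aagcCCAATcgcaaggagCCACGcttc
*Hsp90b1*, chr10:86705529-86705555, minus strand, from -107: agtgCGTGGtgaggcacgATTGGtgag
A match of letters is a description of the window and not a measured site of binding.

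The libraries held 7366 to 12599 barcodes and 74082610 to 122870443 unique molecular identifiers (UMIs), and 33301 nuclei were kept, with medians of 7264 to 8418 UMIs. Clusters were named from marker genes as 14 neuron-like subtypes (19316 nuclei) and 5 non-neuronal classes, together 29117 nuclei, and 3344 further neuron-like and 840 other nuclei were left unnamed. Cre counts went against 1 label. Cre transcripts had 415 UMIs in the library labelled Sel1L flox/flox replicate 1, 0 in flox/flox replicate 2, and 235 and 219 in the libraries labelled Syn-Cre. *Sel1l* itself did not check the labels, since 3′ counts need not lie in the deleted part: it stood at 96.9 and 90.1 counts per 1000000 UMIs (CPM) with the label flox/flox and 155 and 128 CPM with the label Syn-Cre. Groups are therefore named by their labels, and values are given in the order flox/flox replicates 1 and 2, then Syn-Cre replicates 1 and 2. The differences of *Hspa8* in the subtypes with a call are given with and without flox/flox replicate 1. Without it, 1 flox/flox library is left. Replicate 1 of each label was male and replicate 2 female by *Ddx3y* and *Xist*. Library pairs shared 10 to 34 barcodes.

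The 10 genes together had 89566 UMIs in the named nuclei, and 5 of them carried most of these. *Hsp90ab1* had 34448, *Hsp90aa1* 19256, *Hspa8* 17698, *Hsph1* 8744 and *Hsf1* 6944 UMIs. *Dnajb1* had 1496 UMIs, and the remaining genes few: *Bag3* 454, *Hspb1* 253, *Hspa1a* 142 and *Hspa1b* 131. Their levels below are CPM of the UMIs of a class in a library, without scaling by gene length, so genes are not compared with each other, and they count nuclear RNA only. Of the 10 genes, *Hspb1* was among the 2000 variable features on which the nuclei were clustered, and the other 9 were not.

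*Hspa8*, the constitutive cytosolic HSP70 (chr9:40800984-40810087, plus strand, GRCm38), was lowest in neurons and highest in endothelial-like nuclei. Its mean over the 4 libraries ran from 50.7 CPM in CA3-like to 78.2 CPM in *Vip*-like neurons, then 88.7 CPM in oligodendrocyte precursor (OPC)-like, 118 CPM in oligodendrocyte-like, 131 CPM in microglia- or macrophage-like and 159 CPM in astrocyte-like nuclei. Endothelial-like nuclei had a mean of 273 CPM, with 184 and 298 CPM in the flox/flox and 317 and 292 CPM in the Syn-Cre libraries. *Hsp90ab1*, the constitutive cytosolic HSP90 (chr17:45567775-45573271, minus strand), was lowest in layer 5 pyramidal tract (L5 PT)-like neurons, at 94.4 CPM. Among neurons it was highest in the granule cells of the dentate gyrus (DG-like, 164 CPM) and in CA1-like pyramidal cells (151 CPM). In endothelial-like nuclei it reached 389 CPM. *Hsp90aa1*, the inducible HSP90 (chr12:110690605-110702728, minus strand), ranged from 57.5 to 83.2 CPM in neurons and reached 165 CPM in oligodendrocyte-like and 166 CPM in endothelial-like nuclei. In the order of levels most neighbours did not differ beyond their spread: the libraries of neighbouring classes overlapped in 18 of 18 steps for *Hspa8* and *Hsp90aa1*, and in 16 of 18 for *Hsp90ab1*.

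*Hsf1*, the transcription factor of the response (chr15:76477422-76501913, plus strand), ranged from 21.2 CPM in OPC-like to 42.1 CPM in microglia- or macrophage-like nuclei, with 23.8 to 31.1 CPM in neurons. *Hsph1*, the HSP110 nucleotide exchange factor (chr5:149614287-149636376, minus strand), ran from 19.1 CPM in microglia- or macrophage-like to 44.2 CPM in endothelial-like nuclei, and neurons filled nearly that whole range, from 23.6 CPM in *Sst*-like to 40.4 CPM in layer 6 corticothalamic (L6 CT)-like neurons. *Dnajb1*, the J protein that works with inducible HSP70 (chr8:83608193-83612653, plus strand), was at 8.92 CPM in layer 2/3 intratelencephalic (L2/3 IT)-like neurons. Its values there were 9.93 and 7.81 CPM in the flox/flox and 9.60 and 8.32 CPM in the Syn-Cre libraries. All 4 lay above the 2.69 to 6.04 CPM that were the means of the other neuron subtypes, while single libraries of those subtypes reached up to 7.62 CPM.

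**Figure D1:**
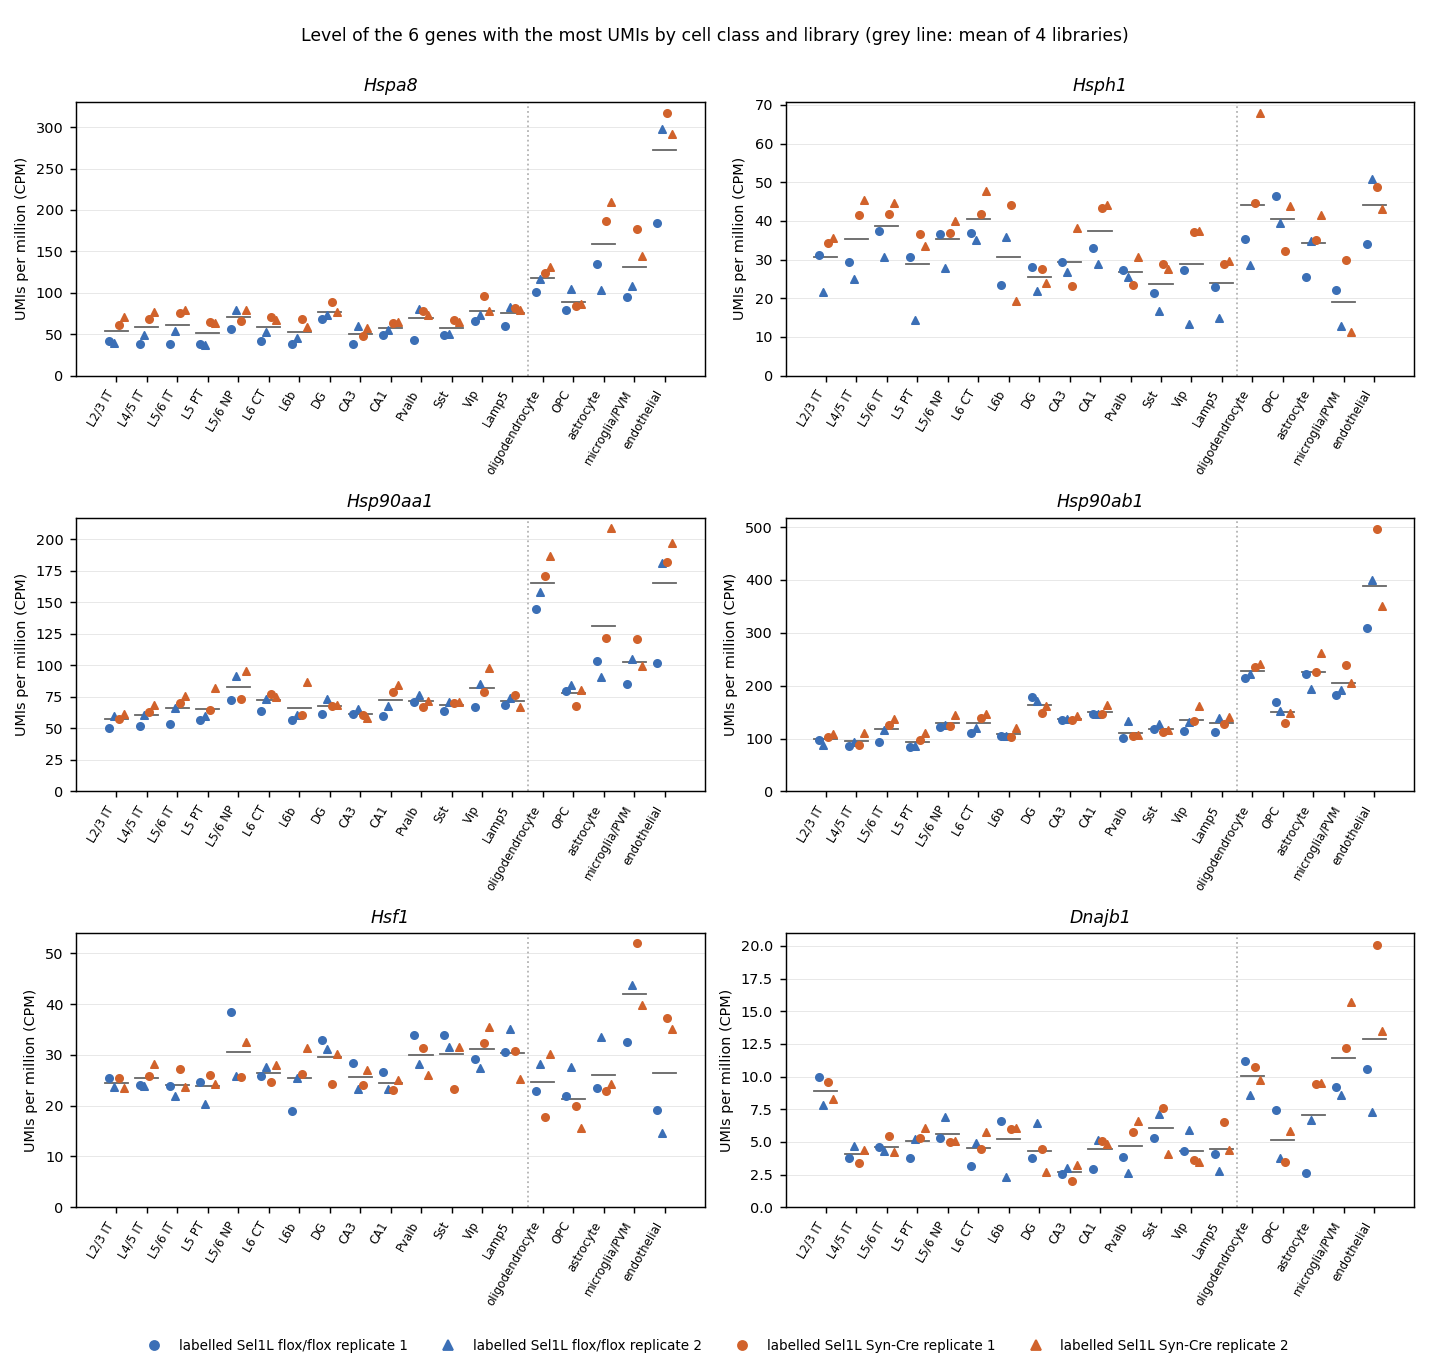
Level of the 6 genes with the most UMIs in each class and library (vertical axes, CPM, from 0; horizontal axes, 14 neuron-like subtypes and, right of the dotted line, 5 non-neuronal classes). Circles are replicate 1 and triangles replicate 2, blue marks libraries labelled flox/flox and orange Syn-Cre, and the grey line is the mean of the 4 libraries; *Hspa8* and *Hsp90ab1* are highest in endothelial-like nuclei (means 273 and 389 CPM).

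The inducible HSP70 genes *Hspa1a* and *Hspa1b* and the small heat shock gene *Hspb1* were nearly absent from neurons. *Hspa1a* and *Hspa1b*, which lie on chromosome 17 (chr17:34969190-34972156 and chr17:34956436-34959238, GRCm38, minus strand, 1 exon each), had 110 and 108 UMIs in the 14 neuron subtypes together. In L2/3 IT-like neurons, which had the most UMIs of both, *Hspa1a* had 24 and *Hspa1b* 42 UMIs over 4 libraries (means of 0.61 and 1.03 CPM). In CA3-like neurons, with fewer nuclei, the means were 0.88 and 1.36 CPM. Of the transcript words of 50 bases, 58.8% of *Hspa1a* were also in *Hspa1b*, but 0% in the last 500 bases, which 3′ counting mostly reads, so the split between them is uncertain for reads from outside that end. *Hspa1a* also overlaps *Gm20481* on the other strand. Neither gene reached 5 CPM as a mean in any class.

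*Hspb1*, the small heat shock protein HSP27 (chr5:135887919-135889563, plus strand), was found in endothelial-like nuclei. It had 74.2 and 79.9 CPM there in the flox/flox and 169 and 89.1 CPM in the Syn-Cre libraries, from 35, 11, 118 and 33 UMIs. Astrocyte-like nuclei had 1.61 CPM, and the mean of no other class was above 0.57 CPM. It had 0 UMIs in oligodendrocyte-like (12828158 UMIs of all genes, which allows up to 0.234 CPM), CA3-like (up to 0.287 CPM), layer 5/6 near-projecting (L5/6 NP)-like (up to 0.366 CPM) and L6b-like nuclei (up to 0.836 CPM), where these limits cover counting error only. Its highest count in 1 nucleus was 10, 2, 17 and 4 UMIs in the 4 libraries. The endothelial-like class was small (197, 66, 248 and 127 nuclei) and not of 1 cell type: beside the endothelial marker *Cldn5* at 310, 806, 689 and 467 CPM it held *Pdgfra* at 151, 610, 202 and 186 CPM. The part of those other cells in the *Hspb1* level was not tested.

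*Bag3*, which couples HSP70 to small heat shock proteins and to autophagy (chr7:128523616-128546981, plus strand), had a different spread. It was at 30.6 CPM in endothelial-like, 21.6 CPM in astrocyte-like and 14.6 CPM in microglia- or macrophage-like nuclei. Among neurons *Pvalb*-like interneurons had the most, with 4.13 and 3.46 CPM in the flox/flox and 3.98 and 3.73 CPM in the Syn-Cre libraries. *Vip*-like (2.45 CPM), CA1-like (1.75 CPM) and CA3-like neurons (1.68 CPM) followed, cortical excitatory subtypes had at most 0.39 CPM, and L5/6 NP-like neurons had 0 UMIs, which allows up to 0.366 CPM.

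**Figure D2:**
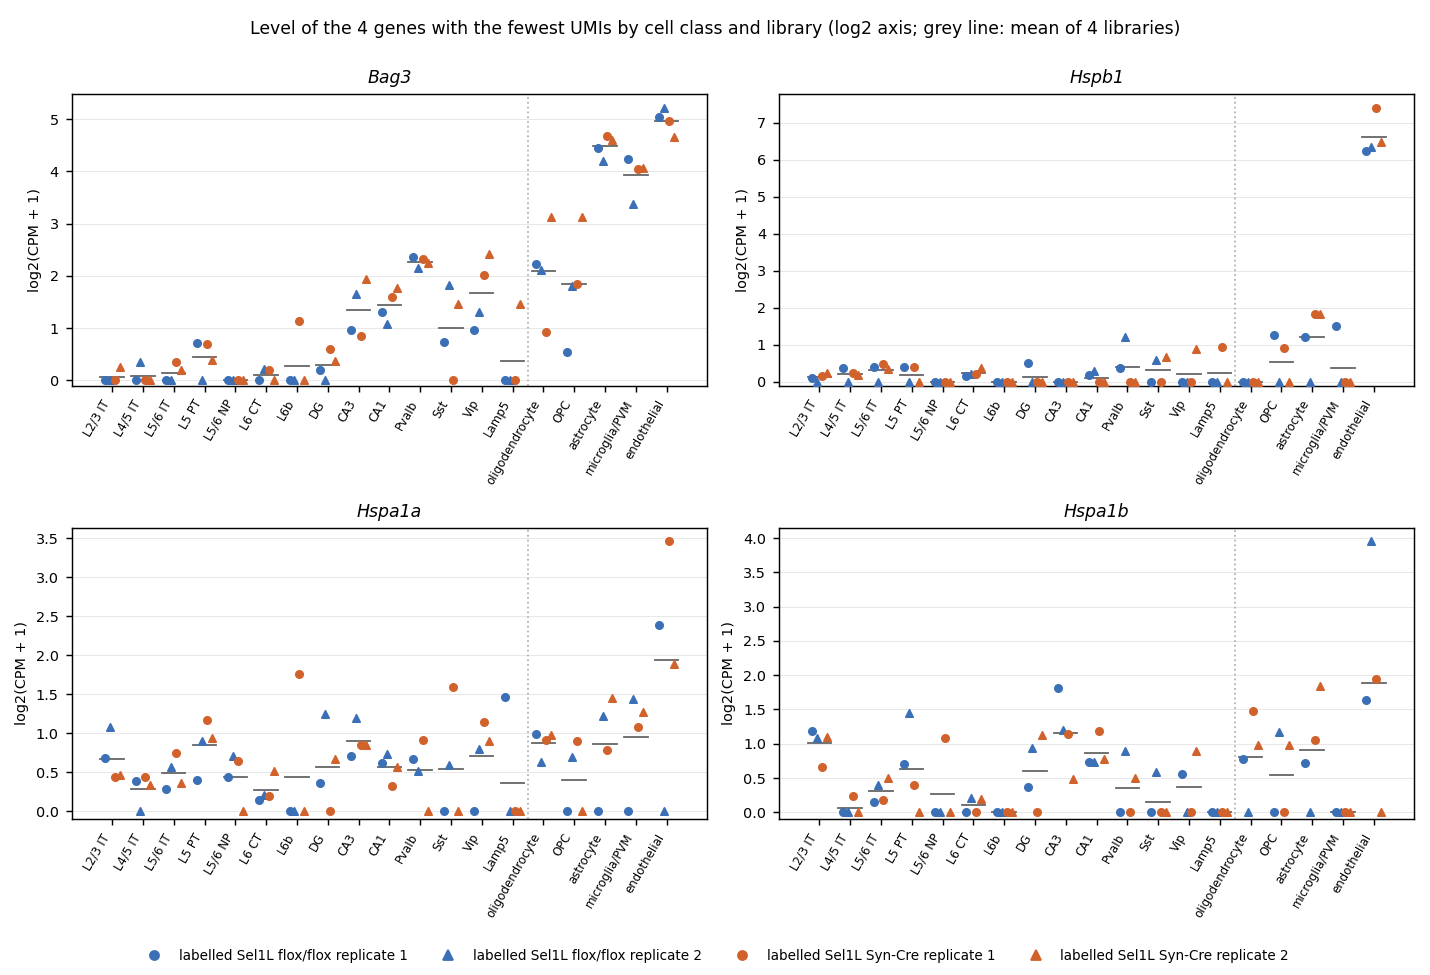
Level of the 4 genes with the fewest UMIs in each class and library (vertical axes, log2(CPM + 1); classes, symbols and colours as in the plot of the abundant genes, and the grey line is the mean of the plotted values). *Hspb1* stands out in endothelial-like nuclei (74.2 to 169 CPM), and among neurons *Bag3* is highest in the *Pvalb*-like subtype (mean 3.82 CPM).

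These class differences were larger than the spread between libraries in a fit over all classes with the library as a block (edgeR quasi-likelihood test, Benjamini-Hochberg adjusted over all genes, threshold 0.05). All 8 genes that passed the filter on low counts were called across classes, where 98% of all genes were. Between the means of neuronal and non-neuronal classes 6 of 8 were called (75.8% of all genes). In the mean of the classes, neurons had less *Bag3* (log2 difference -4.44 ± 0.27 SE), *Hspa8* (-0.96 ± 0.05), *Dnajb1* (-0.69 ± 0.12), *Hsp90ab1* (-0.65 ± 0.04) and *Hsp90aa1* (-0.58 ± 0.05), and more *Hsf1* (0.23 ± 0.07). Single classes departed from this. *Bag3* in oligodendrocyte-like (3.91 CPM) and OPC-like nuclei (3.34 CPM) was near its level in *Pvalb*-like neurons (3.82 CPM). *Dnajb1* was higher in L2/3 IT-like neurons (8.92 CPM) than in astrocyte-like (7.06 CPM) or OPC-like nuclei (5.13 CPM). Under scaling by total UMIs alone the value of *Hsf1* was -0.03, and the median of all genes moved from -0.06 to -0.32. Between inhibitory and excitatory subtypes 3 of 8 were called (57.2% of all genes). In the mean of the inhibitory subtypes *Bag3* was higher (2.52 ± 0.60), *Hsph1* lower (-0.50 ± 0.08) and *Hsp90ab1* lower (-0.11 ± 0.05). The last was 0.03 under scaling by total UMIs. The *Bag3* difference did not hold for each subtype. *Sst*-like (1.24 CPM) and *Lamp5*-like neurons (0.44 CPM) lay below the excitatory CA1-like (1.75 CPM) and CA3-like neurons (1.68 CPM). The classes were made from the same nuclei, so the fit describes levels and is no independent test. *Hspb1*, with 0 UMIs in many pseudobulks, gave no usable estimate in either contrast.

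The main question of the design was whether these genes respond to loss of *Sel1L* in neurons. Between libraries labelled Syn-Cre and flox/flox, 2 of 80 tests of the 10 genes passed in the 14 neuron subtypes (1.43% of all tests over all genes), both of them *Hspa8* and both higher. In the 5 non-neuronal classes 0 of 32 passed (1.61% of all tests). At an unadjusted p under 0.05 the counts were 12 of 80 and 4 of 32. The share of all genes at this unadjusted threshold is not given here, so these counts are not read as a result. DESeq2 called 2 and 0, the 2 being *Hspa8* in L4/5 IT-like and L2/3 IT-like neurons. Its share of all genes is not given here. Of the genes, *Hsf1*, *Hspa8*, *Hsph1*, *Hsp90aa1* and *Hsp90ab1* passed the low-count filter in all 14 subtypes, *Dnajb1* in 9 and *Hspa1b* in 1 (L2/3 IT-like), while *Hspa1a*, *Hspb1* and *Bag3* passed in none.

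*Hspa8* was higher with the label Syn-Cre in 14 of 14 subtypes, by 0.06 to 0.72 (log2, median 0.31), and passed the test in 2 of them. The subtypes come from the same 4 mice and are not independent of each other. How many of all genes were higher in as many subtypes is not given here, so this count is not read as a result. In layer 4/5 intratelencephalic (L4/5 IT)-like neurons, excitatory cells that project within the cortex, *Hspa8* had 38.4 and 49.1 CPM in the flox/flox and 68.7 and 77.0 CPM in the Syn-Cre libraries. Its log2 difference there was 0.70 ± 0.14 (SE, n = 2 against 2; edgeR adjusted p = 0.0364), a 1.62-fold difference. In L5/6 IT-like neurons *Hspa8* had 38.5 and 53.5 CPM against 76.0 and 78.7 CPM, a log2 difference of 0.72 ± 0.15 (edgeR adjusted p = 0.0490), or 1.65-fold. In both subtypes each Syn-Cre library lay above each flox/flox library, as 27.7% and 23.8% of all genes did there. The test called 1.54% and 0.759% of all genes in these subtypes.

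Neighbouring cortical subtypes had differences of like size that did not pass. *Hspa8* in L2/3 IT-like neurons had 41.95 and 39.5 CPM against 61.1 and 71.0 CPM (0.68 ± 0.12, edgeR adjusted p = 0.0706, DESeq2 adjusted p = 0.0230). In L5 PT-like neurons, which project out of the cortex, it had 38.3 and 37.3 CPM against 64.5 and 63.5 CPM (0.71 ± 0.16, edgeR adjusted p = 0.217). In L6 CT-like neurons the difference was 0.49 ± 0.14 (edgeR adjusted p = 0.206). In the 3 subtypes with the most ER chaperone calls *Hspa8* did not pass, and whether its difference there was unlike that in the IT-like subtypes was not tested. In DG-like neurons it had 68.0 and 72.8 CPM against 89.3 and 76.7 CPM (0.19, 95% interval -0.08 to 0.45), in *Sst*-like neurons 49.5 and 49.9 CPM against 67.5 and 64.3 CPM (0.32, -0.02 to 0.67), and in *Pvalb*-like neurons 43.6 and 80.1 CPM against 78.6 and 73.7 CPM (0.25, -0.23 to 0.73). In the last the flox/flox libraries lay on either side of both Syn-Cre libraries. The value was 0.69 without flox/flox replicate 2 and -0.12 without flox/flox replicate 1. The groups did not overlap in 10 of 14 subtypes, where 26.8% of all tests had both Syn-Cre libraries above both flox/flox libraries.

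Leaving out flox/flox replicate 1, the library with Cre UMIs, *Hspa8* stayed called in L4/5 IT-like (0.56, edgeR adjusted p = 0.0139) and L5/6 IT-like neurons (0.55, edgeR adjusted p = 0.00479) and was then also called in L2/3 IT-like neurons (0.76, edgeR adjusted p = 9.52e-05). Leaving out Syn-Cre replicate 1 or 2, it was no longer called in L4/5 IT-like (0.73 and 0.65, edgeR adjusted p = 0.0951 and 0.170) or in L5/6 IT-like neurons (0.71 and 0.73, edgeR adjusted p = 0.0910 and 0.0594). Within replicate numbers the log2 ratio was 0.79 and 0.60 in L4/5 IT-like and 0.92 and 0.53 in L5/6 IT-like neurons.

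Transcripts of ribosomal proteins moved with *Hspa8* in these subtypes. Summed over 81 genes, they had 1688 and 2109 CPM in the flox/flox and 2305 and 2525 CPM in the Syn-Cre libraries in L4/5 IT-like neurons. In L5/6 IT-like neurons they had 1670 and 2268 CPM against 2306 and 2563 CPM. They were also above both flox/flox libraries in both Syn-Cre libraries where *Hspa8* did not pass, at 2139 and 2552 CPM against 3050 and 3192 CPM in *Sst*-like, 1990 and 2540 CPM against 2912 and 2858 CPM in *Pvalb*-like, and 1942 and 2310 CPM against 2547 and 2682 CPM in CA1-like neurons. Markers of other cells were present at low levels. The 6 oligodendrocyte markers summed to 97.4 and 77.5 CPM against 86.6 and 75.6 CPM in L4/5 IT-like and to 118 and 97.0 CPM against 151 and 132 CPM in L5/6 IT-like neurons. The 6 astrocyte markers summed to 548 and 459 CPM against 481 and 448 CPM, and to 378 and 295 CPM against 292 and 304 CPM. The defining astrocyte marker *Aqp4* had 0.51 and 0.69 CPM against 2.15 and 0.53 CPM in L4/5 IT-like neurons, with overlapping groups. In L5/6 IT-like neurons it had 0.33 and 0.64 CPM against 1.09 and 1.26 CPM. *Gja1*, also a defining marker, was at 325 and 357 CPM against 506 and 463 CPM in astrocyte-like nuclei. In both neuron subtypes *Gja1* was above both flox/flox libraries in both Syn-Cre libraries. It had 0.81 and 1.38 CPM against 3.76 and 1.46 CPM in L4/5 IT-like neurons, from 8 and 10 against 21 and 11 UMIs. In L5/6 IT-like neurons it had 0.22 and 0.32 CPM against 1.77 and 3.23 CPM. The 5 OPC markers, some of which neurons also express, likewise summed to 369 and 299 CPM against 391 and 458 CPM, and to 640 and 556 CPM against 670 and 729 CPM, while the defining marker *Pdgfra* among them was at 1.10 CPM or less in each library. The 5 endothelial markers, of the class with the highest *Hspa8*, summed to at most 2.68 CPM in L4/5 IT-like and 4.72 CPM in L5/6 IT-like neurons. The part of the ribosomal protein transcripts and of these other cells in the *Hspa8* result was not tested.

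Outside neurons, where the Synapsin I promoter is not expected to drive Cre, *Hspa8* passed in no class. Differences of similar size were seen in astrocyte-like and microglia- or macrophage-like nuclei. In astrocyte-like nuclei it had 135 and 103 CPM against 187 and 210 CPM (0.69 ± 0.18, edgeR adjusted p = 0.112), and in microglia- or macrophage-like nuclei 95.1 and 108 CPM against 177 and 144 CPM (0.62 ± 0.17, edgeR adjusted p = 0.374). Without flox/flox replicate 1 the astrocyte-like value was 0.89 and the microglia- or macrophage-like value 0.54. Without flox/flox replicate 2 they were 0.53 and 0.71. Each of these fits had 1 flox/flox library, so no call is read from them. In OPC-like nuclei *Hspa8* was at 79.5 and 104 CPM against 84.5 and 86.6 CPM, with overlapping groups. Within replicate numbers its log2 ratio was 0.32 and 0.09 in oligodendrocyte-like and 0.75 and -0.0048 in endothelial-like nuclei. A difference between neurons and other cells was not tested.

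*Hsph1* was higher with the label Syn-Cre in 12 of 14 subtypes (-0.05 to 0.78, median 0.33) and passed in none. For this count too no share of all genes is given. In L4/5 IT-like neurons it had 29.4 and 25.1 CPM against 41.5 and 45.4 CPM (0.62 ± 0.15, edgeR adjusted p = 0.0736). In CA1-like neurons it had 33.1 and 28.8 CPM against 43.3 and 44.2 CPM (0.43 ± 0.15, edgeR adjusted p = 0.493). The groups did not overlap in either subtype. Both Syn-Cre libraries lay above both flox/flox libraries for 27.7% of all genes in L4/5 IT-like neurons. Over the 14 subtypes together this was so in 26.8% of all tests. In L5 PT-like neurons the flox/flox libraries lay far apart, at 30.7 and 14.3 CPM, against 36.6 and 33.4 CPM. Without flox/flox replicate 1, *Hsph1* differed by 0.71 in L2/3 IT-like and 0.78 in L4/5 IT-like neurons. In L5/6 IT-like and L5 PT-like neurons it then differed by 0.50 and 1.25. Without flox/flox replicate 2 these 4 values were 0.12, 0.48, 0.11 and 0.12. Each of these fits had 1 flox/flox library, so no call is read from them. With all 4 libraries *Hsph1* in L4/5 IT-like neurons passed with edgeR's likelihood ratio test (0.62, adjusted p = 0.0145) and with doublets kept (0.67, adjusted p = 0.0406).

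None of the HSP90 genes, *Dnajb1* and *Hsf1* passed in this test with all 4 libraries, and their values lay in both directions. *Hsp90aa1* ranged from -0.16 to 0.30 over the 14 subtypes (9 higher, 5 lower) and *Hsp90ab1* from -0.23 to 0.31 (9 higher, 5 lower). *Hsp90ab1* in DG-like neurons had 178 and 170 CPM against 148 and 161 CPM, a difference of -0.23 with a 95% interval of -0.45 to -0.0037 (edgeR adjusted p = 0.293), and in L5/6 IT-like neurons 92.8 and 116 CPM against 126 and 138 CPM (0.31, 0.02 to 0.59, edgeR adjusted p = 0.419). Without flox/flox replicate 2 the latter was 0.41. *Dnajb1* ranged from -0.48 to 0.81 over the 9 subtypes tested, with the highest value in *Pvalb*-like neurons (95% interval -0.15 to 1.78). *Hsf1* ranged from -0.35 to 0.30 (5 higher, 9 lower), and at its transcript it showed no subtype with an unadjusted p under 0.05.

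For the scarce genes the low counts limited what could be seen. *Hspa1b* in L2/3 IT-like neurons had 15 and 10 UMIs against 5 and 12 UMIs (-0.46). *Hspa1a* had 7 and 10 UMIs against 3 and 4 UMIs there and was not tested. *Hspb1* in endothelial-like nuclei differed by 0.78 (edgeR adjusted p = 0.713), with 118 of the 197 UMIs in Syn-Cre replicate 1. *Bag3* differed by 0.28 in astrocyte-like, 0.10 in microglia- or macrophage-like and -0.27 in endothelial-like nuclei, none of which passed.

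The ER chaperones of the same libraries were called in a larger share of tests. Over the 14 subtypes 61 of 193 tests of the 14 ER chaperone genes passed, all higher with the label Syn-Cre (0.826% of all tests over all genes were called higher), and in the non-neuronal classes 14 of 65. They passed in 13 of 14 genes each in DG-like, *Pvalb*-like and *Sst*-like neurons, where 4.01%, 4.1% and 8.17% of all genes were called, and in 0 of 14 in CA1-like neurons (0.0151%). None passed in L2/3 IT-, L5 PT-, L6b- and *Vip*-like neurons either, with medians of 0.14, 0.23, 0.83 and 0.27. In OPC-like nuclei 11 of 14 passed (5.47%). The ER list is known for its response in this model and is shown as a contrast. In DG-like neurons the median of the tested cytosolic genes was -0.13 and that of the ER genes 1.85. In *Pvalb*-like neurons they were -0.10 and 1.82, in *Sst*-like neurons -0.06 and 2.03, and in CA1-like neurons 0.27 and 0.14. The cytosolic medians are over the 6 genes that passed the filter in each.

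**Figure D3:**
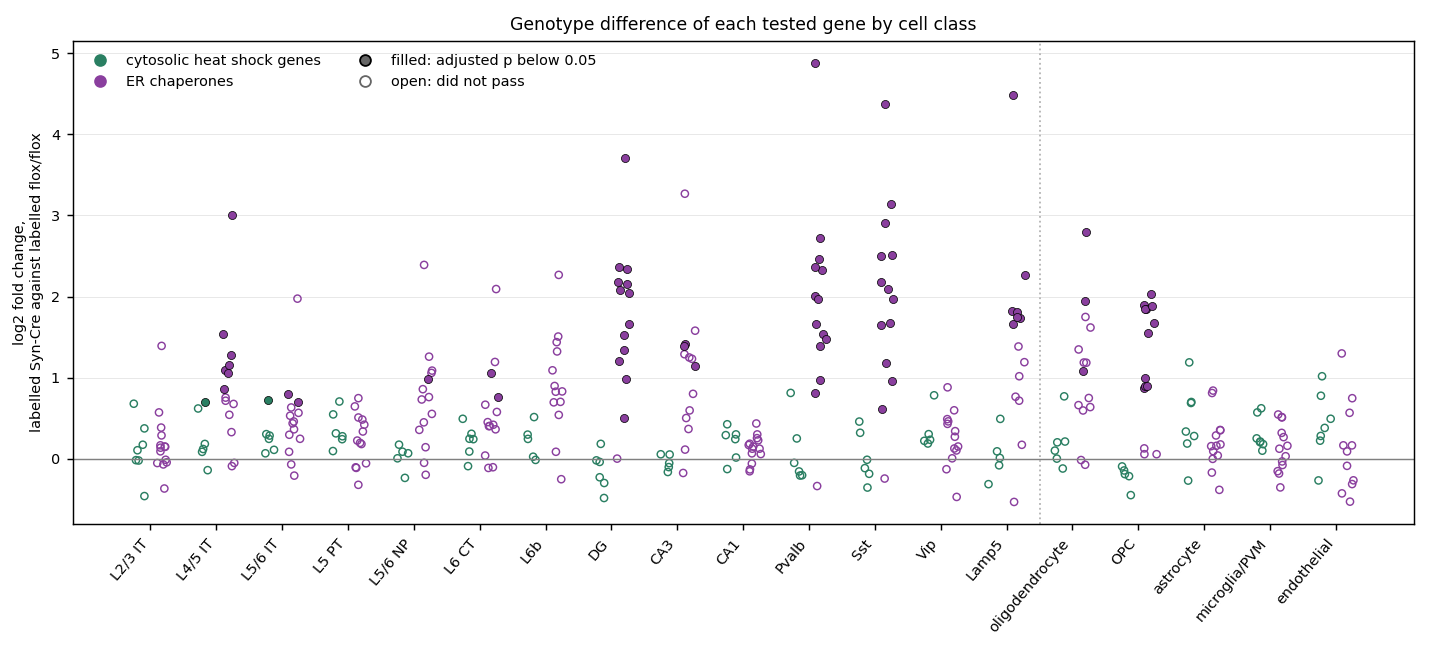
Difference between libraries labelled Syn-Cre and flox/flox (vertical axis, log2 fold change) of each tested cytosolic heat shock gene (green) and ER chaperone (purple) in each class, with neuron subtypes left of the dotted line. Filled points have an adjusted p below 0.05: of the green points these are *Hspa8* in L4/5 IT-like (0.70) and L5/6 IT-like neurons (0.72), and of the purple points 61 in neuron subtypes and 14 in other classes.

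The contrast can be read for each pair of relatives. *Hspa5*, the ER HSP70, had 27.8 and 27.1 CPM in the flox/flox and 137 and 117 CPM in the Syn-Cre libraries in DG-like neurons, a 4.45-fold difference (edgeR adjusted p = 3.36e-07), while *Hspa8* differed 1.14-fold. In *Sst*-like neurons *Hspa5* had 19.3 and 23.9 CPM against 258 and 142 CPM, an 8.86-fold difference, while *Hspa8* differed 1.25-fold. In L4/5 IT-like neurons both passed, *Hspa5* at 1.55 and *Hspa8* at 0.70 (log2). Flox/flox replicate 1, although it held Cre UMIs, was near flox/flox replicate 2 in *Hspa5* in these subtypes. *Hsp90b1*, the ER HSP90, rose by 2.08, 2.01 and 2.18 (log2) in DG-, *Pvalb*- and *Sst*-like neurons, and *Hyou1*, the ER HSP110, by 2.18, 2.73 and 2.50. *Dnajb9*, an ER J protein, rose by 1.66, 1.54 and 1.97. In CA1-like neurons none of these passed, at 0.30, 0.13, 0.06 and 0.17 for *Hspa5*, *Hsp90b1*, *Hyou1* and *Dnajb9*. Of the other ER genes that passed in at least 3 subtypes, *Dnajc3* passed in 9, *Sdf2l1* and *Pdia6* in 5, *Pdia3* and *Pdia4* in 4, and *Dnajb11*, *Dnajc10*, *Canx* and *Calr* in 3.

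**Figure D4:**
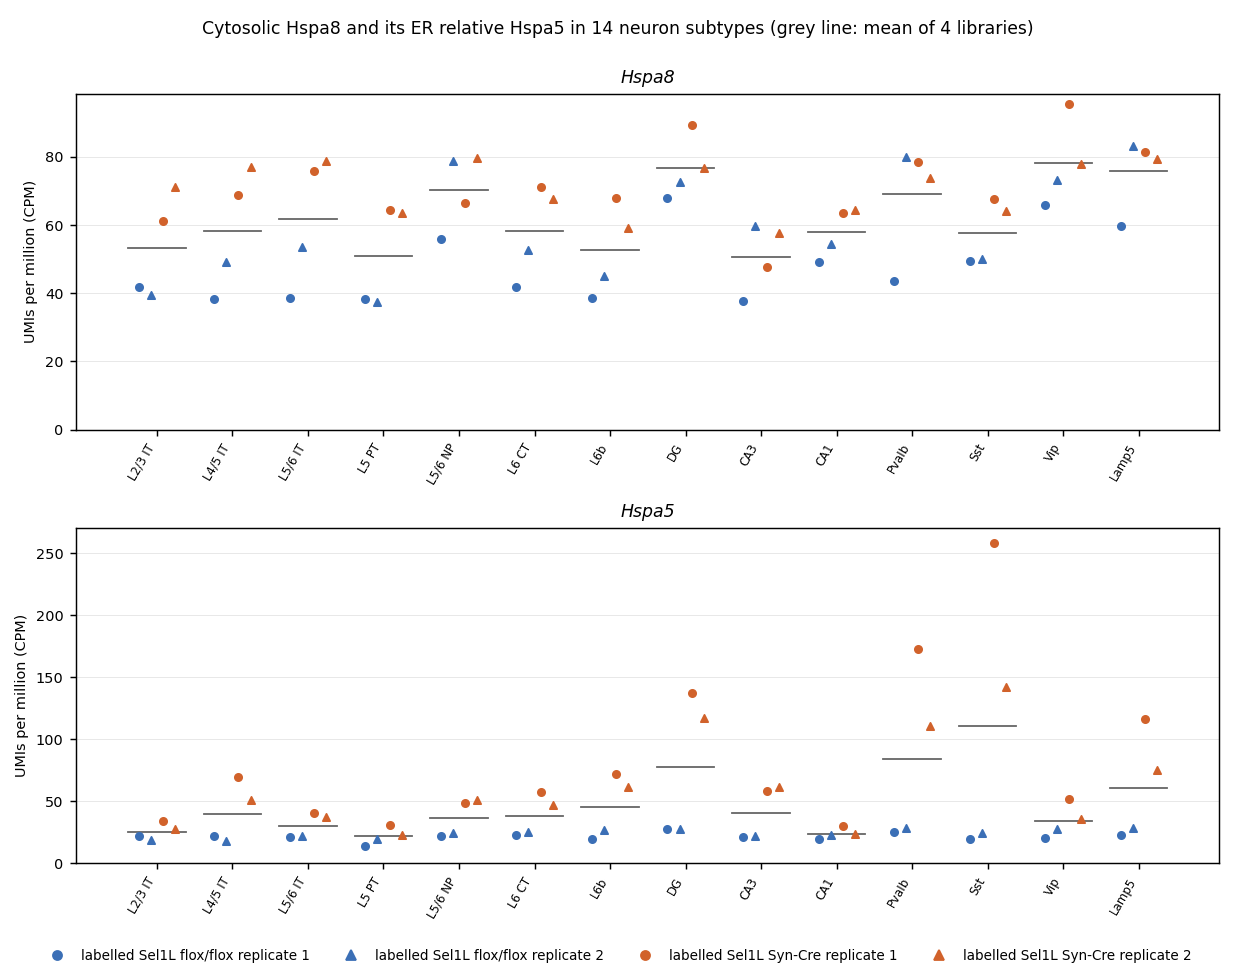
Level of *Hspa8* and of its ER relative *Hspa5* in each neuron subtype and library (vertical axes, CPM, from 0; symbols, colours and grey lines as in the plot of the abundant genes). In *Sst*-like neurons *Hspa5* goes from 19.3 and 23.9 CPM to 258 and 142 CPM, and *Hspa8* from 49.5 and 49.9 CPM to 67.5 and 64.3 CPM.

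Whether the difference between labels itself differed between subtypes was tested against CA1-like neurons. DG-, *Pvalb*- and *Sst*-like neurons were taken because the study reported a more pronounced ER response there. CA1 was the reference because the study found SEL1L largely kept in it. None of the tested cytosolic genes was called for such a difference between subtypes (0 of 6 for DG-like, 0 of 7 for *Pvalb*-like and 0 of 6 for *Sst*-like neurons by edgeR, where 2.09%, 1.72% and 2.77% of all genes were called). Of these tests 2, 1 and 1 had an unadjusted p under 0.05, for which no share of all genes is given, and DESeq2 called 0. For *Hspa8* the difference from CA1-like neurons was -0.05 in DG-like (95% interval -0.34 to 0.25), 0.06 in *Pvalb*-like (-0.39 to 0.52) and 0.02 in *Sst*-like neurons (-0.36 to 0.40). These bounds lie below the values of *Hspa5*, 1.86, 2.03 and 2.76. For *Hsp90aa1* it was -0.32 (-0.61 to -0.03), -0.45 (-0.78 to -0.11) and -0.36 (-0.72 to -0.0076), with each 95% interval below 0. For *Hsph1* it was -0.43 (-0.83 to -0.04), -0.46 (-0.94 to 0.02) and -0.01 (-0.53 to 0.50). None of these passed after adjustment, and the intervals are not adjusted for the number of genes. Of the ER genes 13 of 14 passed in each of the 3 fits, 39 in all. The study had reported this contrast from the same libraries, so the ER calls are a description and no independent test. The 3 fits share the CA1-like pseudobulks.

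The ratio of a cytosolic chaperone to its ER relative within a library does not depend on how libraries are scaled. The UMI ratio of *Hspa8* to *Hspa5* in DG-like neurons was 2.44 and 2.69 in the flox/flox and 0.65 and 0.65 in the Syn-Cre libraries (log2 difference -1.97). In *Pvalb*-like neurons it was 1.72 and 2.85 against 0.46 and 0.67 (-2.004), and in *Sst*-like neurons 2.57 and 2.09 against 0.26 and 0.45 (-2.75). In CA1-like neurons it was 2.56 and 2.44 against 2.11 and 2.79, with overlapping groups (-0.04). With 2 libraries against 2 the two-sided exact permutation test cannot go below p = 0.333, which was its value in the 3 subtypes with separate groups. The ratio was lower with the label Syn-Cre in 12 of 14 subtypes for *Hspa8* to *Hspa5*, in 13 for *Hsp90ab1* to *Hsp90b1* and in 10 for *Hsph1* to *Hyou1*, and the groups did not overlap in 10, 9 and 11. These were all lower for the first and second ratio. For *Hsph1* to *Hyou1* 8 were lower and 3 higher (L5 PT-like 0.79, *Vip*-like 0.91 and CA1-like 0.38). A separation of 2 libraries from 2 has an exact permutation p of 0.333, and the share over ratios of other genes was not computed. A lower ratio also holds the rise of the ER gene and is no separate result about the cytosolic gene. *Hsp90ab1* to *Hsp90b1* differed by -2.29, -2.20 and -2.35 in DG-, *Pvalb*- and *Sst*-like neurons and *Hsph1* to *Hyou1* by -2.15, -2.78 and -1.99. In CA1-like neurons *Hsph1* to *Hyou1* was higher with the label Syn-Cre, at 2.82 and 2.58 against 3.80 and 3.23 (0.38). Without flox/flox replicate 1 the 3 ratios lay between -1.93 and -2.66 in DG-, *Pvalb*- and *Sst*-like neurons.

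**Figure D5:**
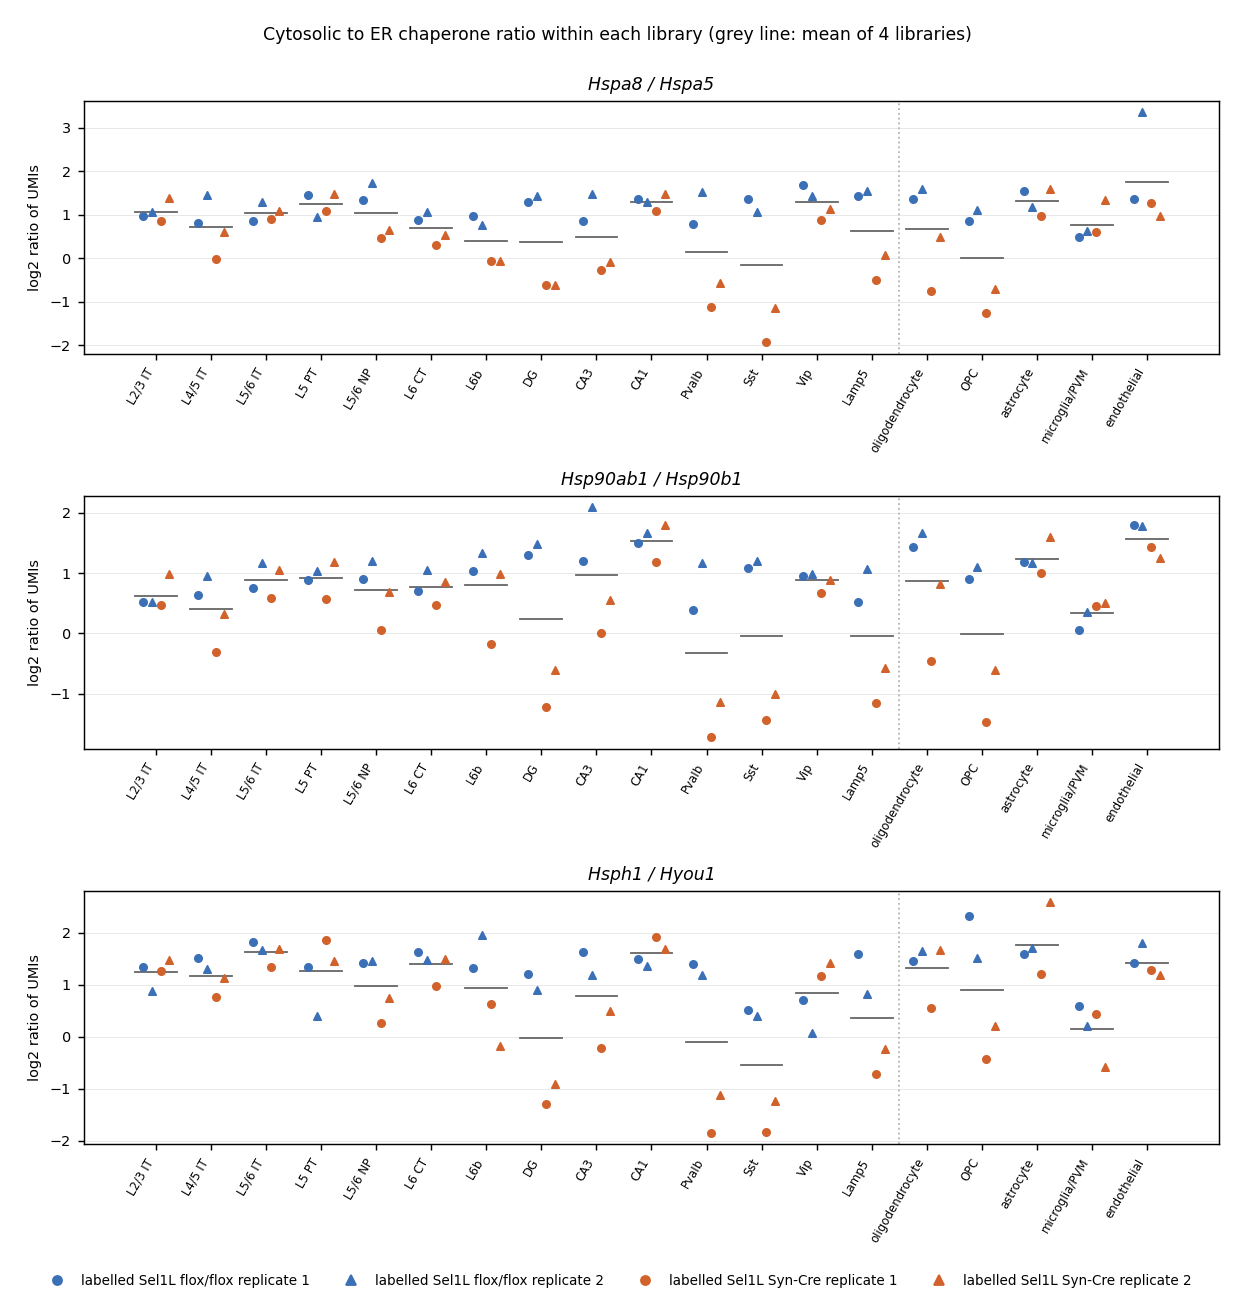
UMI ratio of 3 cytosolic chaperones to their ER relatives in each class and library (vertical axes, log2 ratio; classes, symbols, colours and grey lines as in the plot of the abundant genes). In DG-, *Pvalb*- and *Sst*-like neurons both Syn-Cre libraries lie below both flox/flox libraries in all 3 ratios, and in CA1-like neurons the groups overlap for *Hspa8* to *Hspa5* and *Hsp90ab1* to *Hsp90b1*.

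The other genes of the cytosolic response and its neighbours were read from fixed lists. Over all genes, 1.43% of tests in neuron subtypes and 1.61% in non-neuronal classes were called. Beside these low shares, 0 or 1 calls in a list are not read as a result about that list. The counts at an unadjusted p under 0.05 have no share of all genes beside them and are not read as a result either. The HSF family and its regulators passed in 0 of 64 tests in neuron subtypes (7 with an unadjusted p under 0.05), other cytosolic J proteins in 0 of 125 (13), the chaperonin TRiC with prefoldin in 0 of 182 (6), and other small heat shock proteins in 0 of 21 (1). Of other cytosolic HSP70 and nucleotide exchange genes 1 of 138 passed, *Hspa12a*, an atypical HSP70, which fell by 0.70 in *Pvalb*-like neurons (log2). In non-neuronal classes these 5 lists passed in 0 of 17, 0 of 40, 0 of 64, 1 of 12 and 0 of 47 tests (4, 1, 3, 2 and 2 with an unadjusted p under 0.05). The 1 was *Hspb11*, which fell by 1.28 in OPC-like nuclei. It is in the list of small heat shock proteins by its symbol, and whether it acts as one was not examined.

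HSP90 co-chaperones passed in 4 of 168 tests in neurons and in 4 of 59 elsewhere, and all 8 were *Fkbp5*, an immunophilin of steroid receptor complexes. For this list and those that follow, the shares over all genes were 1.43% of tests in neuron subtypes and 1.61% in non-neuronal classes. *Fkbp5* rose by 1.48 in L2/3 IT-like, 1.44 in L4/5 IT-like, 1.43 in L5/6 IT-like and 1.52 in L6 CT-like neurons. It rose by 3.32 in astrocyte-like, 2.97 in oligodendrocyte-like, 2.05 in microglia- or macrophage-like and 1.27 in OPC-like nuclei. Mitochondrial chaperones passed in 5 of 112 tests in neurons and 1 of 39 elsewhere, all higher. *Hspa9*, the mitochondrial HSP70, rose by 0.64 in L4/5 IT-like and 1.00 in *Sst*-like neurons and by 1.06 in OPC-like nuclei. *Hspe1* (0.85) and *Dnaja3* (0.74) rose in *Sst*-like neurons and the protease *Lonp1* (1.01) in *Pvalb*-like neurons. Of all genes, 8.17% were called in *Sst*-like neurons, 4.1% in *Pvalb*-like neurons and 5.47% in OPC-like nuclei. Immediate early genes, which answer neuronal activity, passed in 5 of 112 tests in neurons (4 higher, 1 lower) and in 1 of 28 elsewhere. In neurons 41 of the 112 had an unadjusted p under 0.05, without a share of all genes to set beside it. *Nr4a1* rose in both subtypes in which *Hspa8* passed the test (0.80 and 0.77), and a link between them was not tested. *Junb* fell by 0.68 in L4/5 IT-like neurons, and *Fos* rose by 2.68 in *Sst*-like neurons and *Egr1* by 1.25 in OPC-like nuclei.

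Over the 76 pseudobulks (19 classes in 4 libraries), the genes whose log2(CPM + 1) was most like that of *Hspa8* were *Chchd2* (Pearson r = 0.946), *Rpl23* (0.943) and *Rpl34* (0.941), of 10713 genes compared. For *Hsp90ab1* they were *Ubb* (0.928), *Rpl26* (0.921) and *Rps3* (0.919), and for *Hsp90aa1* *Gpx4* (0.876), *Ptgds* (0.876) and *Adipor2* (0.874). *Hspb1* was most like *Cldn5* (0.959), *Ly6c1* (0.956) and *Slc6a13* (0.952), of which the first marks endothelial cells and the last vascular fibroblasts, and *Bag3* most like *Smdt1* (0.883), *Cd63* (0.879) and *Laptm4a* (0.875). The pseudobulks share their libraries and depth, which was lower in non-neuronal nuclei (class medians of 1745.5 to 4030.5 UMIs against 7086 to 18928.5 in neuron subtypes), so these values are a description. For *Hsf1*, *Hspa1a*, *Hspa1b*, *Hsph1* and *Dnajb1* the highest r was 0.676 or less.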

How the data were processed

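Nuclei were sorted from flash-frozen cortex and hippocampus and sequenced with 10x 3′ v3 chemistry. The authors made the deposited UMI counts (whole numbers of molecules per gene and nucleus, not normalized) with Cell Ranger 6.1.0, and GRCm38 is named in the submitters' processing notes. Whether introns were counted is not given in the sources used here. Nuclei with more than 600 genes and under 5% mitochondrial UMIs were kept, Scrublet (scanpy 1.11.5) removed 430 to 1259 doublets per library (0.8% per 1000 nuclei), and nuclei were integrated and clustered in Seurat 5.3.0 (17 dimensions, resolution 0.2, neurons again at 0.4). Clusters were named from at least 3 detected markers. That gave 14 neuron subtypes where 11 had been planned, and the others were tested the same way.

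Summed counts of each class were tested between labels in edgeR 4.0.16 (TMM, filterByExpr, quasi-likelihood F test, two-sided, prior count 0.125, Benjamini-Hochberg over all genes of a class, threshold 0.05), between subtypes by an interaction with the library as a block. Ratios used an exact permutation test. On simulated counts with 200 changed genes the calls were tested before use. DESeq2 1.42.0 and other settings were alternatives. Named were all 10 genes, the ER relatives, ER genes called in at least 3 subtypes, at most 4 called genes of each other list, and the 3 genes most like each member among those with a mean of at least 10 CPM. The members and lists were chosen with earlier results of these data known. So were the subtypes and the reference of the interaction.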

Additional observations from a re-analysis of the deposited data

Results flagged for a closer look

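Cre transcripts were counted outside the main measurement, and the library labelled Sel1L flox/flox replicate 1 held 415 Cre UMIs in its kept nuclei (4.10 CPM), where flox/flox replicate 2 held 0 and the Syn-Cre libraries 235 and 219 (3.52 and 3.30 CPM). The cause was not tested. The *Hspa8* differences in the subtypes with a call, and the ratios in DG-, *Pvalb*- and *Sst*-like neurons, are given without this library as well.

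The difference between labels differed from that in CA1-like neurons, by the interaction test, for all 4 ER relatives in DG-, *Pvalb*- and *Sst*-like neurons. For *Hspa5* it was larger by 1.86, 2.03 and 2.76 (log2), and for *Hsp90b1* by 1.97, 1.89 and 2.01. For *Hyou1* it was larger by 2.12, 2.68 and 2.36, and for *Dnajb9* by 1.52, 1.40 and 1.76. Of the 10 cytosolic heat shock genes, 6, 7 and 6 were tested there and none was called. Over all genes 2.09%, 1.72% and 2.77% were called, so the lack of calls among so few genes is not read as a result about them.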

How the results depend on the processing

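With 2 mice a label, adjusted p-values near 0.05 moved easily. The low counts of *Hspa1a*, *Hspb1* and *Bag3* left them without a test between labels in the single neuron subtypes. The 2 calls of the 10 genes in neuron subtypes became 5 with edgeR's likelihood ratio test or a replicate block (with the block, *Hspa8* also in L2/3 IT-like (0.68, edgeR adjusted p = 0.00846) and L5 PT-like neurons (0.71, 0.0162), and *Hsph1* in L4/5 IT-like neurons (0.63, 0.0289)), 1 with total UMIs alone, names without integration or edgeR's earlier quasi-likelihood test (chosen after seeing the data), and 0 with no filter or thinned pseudobulks. With one library left out they ranged from 0 to 7 (7 without Sel1L flox/flox replicate 1, 6 without flox/flox replicate 2, 1 without Syn-Cre replicate 1 and 0 without Syn-Cre replicate 2). In non-neuronal classes 0 became 1 with a replicate block (*Hsph1* in oligodendrocyte-like nuclei) and ranged from 0 to 1 with one library left out. The 61 calls of ER chaperones became 39 with no filter, and ranged from 54 to 81 with one library left out. Their 39 interaction calls became 24 with DESeq2 and ranged from 20 to 33 with one library left out (20 without Syn-Cre replicate 1), which was added after seeing the data. The inhibitory minus excitatory calls went from 3 to 5 with total UMIs alone, where *Hsp90aa1* (0.14), *Hsp90ab1* (0.032) and the neuronal minus non-neuronal value of *Hsf1* (-0.030) changed sign. Total UMIs alone moved all-gene medians from 0.02 to 0.16 and from -0.06 to -0.32, and the higher and lower calls from 4994 and 4638 to 7253 and 3321 and from 6217 and 6528 to 4764 and 8378. In CA1-like neurons the log2 difference of the *Hspa8* to *Hspa5* ratio ranged from -0.24 to 0.16, and of *Hsp90ab1* to *Hsp90b1* from -0.40 to 0.21, with one library left out, above 0 without Syn-Cre replicate 1 in both.

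*Hspa8* lost its call in L4/5 IT-like neurons with no filter and with thinned pseudobulks, and in L5/6 IT-like neurons with these, DESeq2 (adjusted p = 0.0522, where edgeR gave 0.0490), total UMIs alone, doublets kept, names without integration and the earlier quasi-likelihood test. It kept its direction in each. Of the alternatives of single genes, 1114 stayed on the same side of the threshold, 107 passed where the value as reported did not, 46 no longer passed and 3 reversed. Of 2811 alternatives of uncalled values 124 had the other sign. The labels tie same-numbered replicates by the number alone, by expression they shared sex, and their deviations correlated at -0.06 to 0.24. Thinned pseudobulks (828446 UMIs) were made for neuron subtypes and not for other classes. The cause of these changes was not tested.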
